A study of Mus musculus with 5 samples.

Results

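The genes described here make up 5 families of protease inhibitors, taken by mouse symbol: the WFDC genes, the SPINK genes, the SPINT genes, the serpins of clades A to I and the numbered cystatins. They are 112 of the 78334 genes in the count table, namely 18 WFDC, 12 SPINK, 5 SPINT, 68 serpin and 9 cystatin genes. A pseudogene suffix marks 5 of the serpins. Symbols were found for 51486 gene IDs, and an ID without one could not be a member. Of the 112 genes, 98 had a count in some library, 51 reached 5 CPM, the unit used throughout for a gene's counts relative to the total of its library, in at least 1 library, and 76 had enough counts to be tested.

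The libraries are RNA-seq of tissue labelled visceral fat from male C57BL/6 mice, and the design asks what a diabetes model and then curcumin, a polyphenol of turmeric, change there. Curcumin-treated diabetic mice gave 2 libraries: streptozotocin, which destroys pancreatic beta cells, was injected at 70 mg/kg at 2 days of age, feed with 60% of its energy as fat began at 3 weeks and ran for 8 weeks, and curcumin was given by gavage at 50 mg/kg each day for 28 days from 11 weeks. Diabetic mice with the same streptozotocin and diet but vehicle in place of curcumin gave 2 libraries. The control, fed standard chow and given vehicle, gave 1 library. Nothing in the labels ties a library to a mouse of its own, so every p here measures only the spread between libraries, which may be technical, and the control has no spread of its own. Within a group, values are given for library 1 and then library 2.

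Protease inhibitors bind proteases and stop them cutting. WFDC proteins carry a whey acidic protein core, SPINK proteins carry Kazal domains and SPINT proteins carry Kunitz domains, and most of the inhibitors of these families act on serine proteases, while cystatins block cysteine proteases such as the cathepsins. Serpins trap a protease by an irreversible change of shape, although some members have lost that activity. In male rodents many WFDC, SPINK, SPINT and cystatin genes are known from the epididymis, the duct where sperm mature and which lies along the gonadal fat pad, while fat and its stroma are known for cystatin C and for serpins that control clotting, complement and matrix turnover.

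Markers of the labelled tissue and of the epididymis split the libraries across the groups, and no group was uniform. Total counts ran from 25378046 to 42422890 per library. Defining genes of adipocytes (12 genes) took 0.381% and 0.0189% of the counts in the curcumin-treated libraries, 0.0143% and 2.63% in the diabetes libraries and 0.0538% in control, with Retn and Pparg at 0 in diabetes 1. Genes of the epididymal epithelium (18 genes) took 0.602% and 11.3% in the curcumin-treated libraries, 7.48% and 5.5e-05% in the diabetes libraries and 7.73% in control. In diabetes 2 that share was 14 counts, with 13 of the 18 genes at 0, and in curcumin-treated 1 only 3 of the 18 reached 5 CPM, with Crisp1 alone at 5965 of the summed 6018 CPM. Smooth muscle genes (8 genes) took 4.32% of curcumin-treated 1, against 0.215% of curcumin-treated 2, 0.144% and 0.0323% of the diabetes libraries and 0.247% of control. Diabetes 2 and curcumin-treated 1 thus stood apart from the other 3 libraries, including the other library of their own group. In bulk RNA, fewer cells of a type and less RNA per cell cannot be told apart.

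Together the 112 genes took 0.646% and 1.68% of the counts in the curcumin-treated libraries, 1.87% and 0.502% in the diabetes libraries and 1.77% in control. No family's share had a 95% Wilson interval wider than 0.0105 percentage points, and these intervals cover counting error only. WFDC genes took 0.0263% and 0.354% of the curcumin-treated libraries, 0.397% and 0.00933% of the diabetes libraries and 0.406% of control. The SPINK share was 0.164% and 0.436% in curcumin-treated tissue, 0.624% and 0.000106% in diabetes, the last being 27 counts, and 0.466% in control. For the SPINT genes it was 0.0760% and 0.153% with curcumin, 0.249% and 0.00142% in diabetes and 0.213% in control. In these 3 families diabetes 2 was the lowest library and curcumin-treated 1 the next lowest, so that the curcumin-treated and the diabetes group each held 1 higher and 1 lower library.

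The serpins had another order. Their share was 0.291% and 0.0996% with curcumin, 0.208% and 0.364% in diabetes and 0.164% in control, with diabetes 2 highest. Cystatins took 0.0888% and 0.633% of the curcumin-treated libraries, 0.392% and 0.126% of the diabetes libraries and 0.521% of control. Family sums hid a change of leading gene: Cst3 alone held 99.5% of the cystatin counts in curcumin-treated 1 and 99.9% in diabetes 2, while Cst11 led in the other 3 libraries. Likewise Spink8 held 96.8% of the SPINK counts in curcumin-treated 1, Wfdc21 held 83.3% of the WFDC counts in diabetes 2, and Spint2 held 99.4% of the SPINT counts there.

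**Figure D1:**
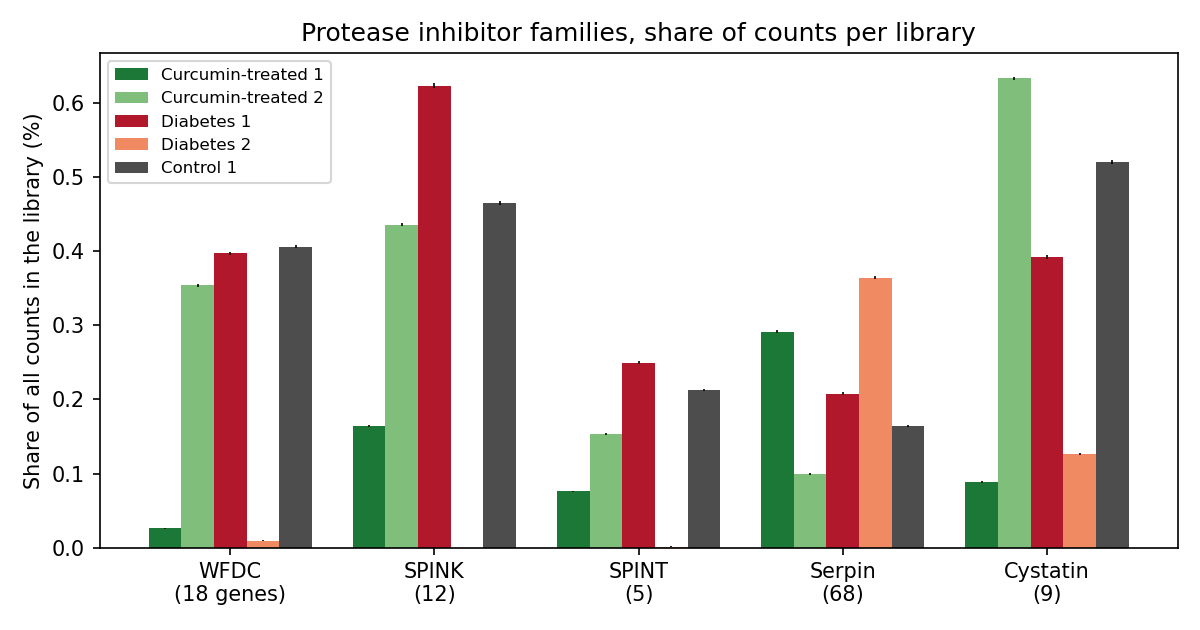
Bars show each family's share of all counts in a library, in percent, for the 2 curcumin-treated, 2 diabetes and 1 control libraries, with 95% Wilson intervals as thin lines and gene numbers under the family names. The WFDC, SPINK and SPINT shares are lowest in diabetes 2, where the serpin share of 0.364% is the highest of the 5 libraries.

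Split by library, the 51 genes that reached 5 CPM fell into a few sets. In control 1, diabetes 1 and curcumin-treated 2 alone, 19 genes passed 5 CPM, among them Cst8, Cst11, Spink2 and Wfdc8. The same 3 libraries plus curcumin-treated 1 passed for 10 genes, among them Spink8, Serpina1f and Wfdc10. All 5 libraries passed for 8 genes, which were Cst3, Spint2 and the serpins Serpinb6a, Serpinb9, Serpine2, Serpinf1, Serping1 and Serpinh1. Diabetes 2 alone passed for 5 serpins, and diabetes 2 with curcumin-treated 1 passed for 5 genes, among them Serpina3c, Serpina3n, Wfdc17 and Wfdc21. The 32 genes under 5 CPM in diabetes 2 summed to 3871 and 14254 CPM with curcumin, 16928 and 3.19 CPM in diabetes and 15726 CPM in control. For the 19 genes at or above 5 CPM in diabetes 2, the sums were 2578 and 2495 CPM with curcumin, 1763 and 4977 CPM in diabetes and 1959 CPM in control. Both sets were chosen by their level in diabetes 2, and the 32 genes also by reaching 5 CPM in another library. The low and high sums in diabetes 2 therefore follow from the choice, and all these sums are a description only.

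**Figure D2:**
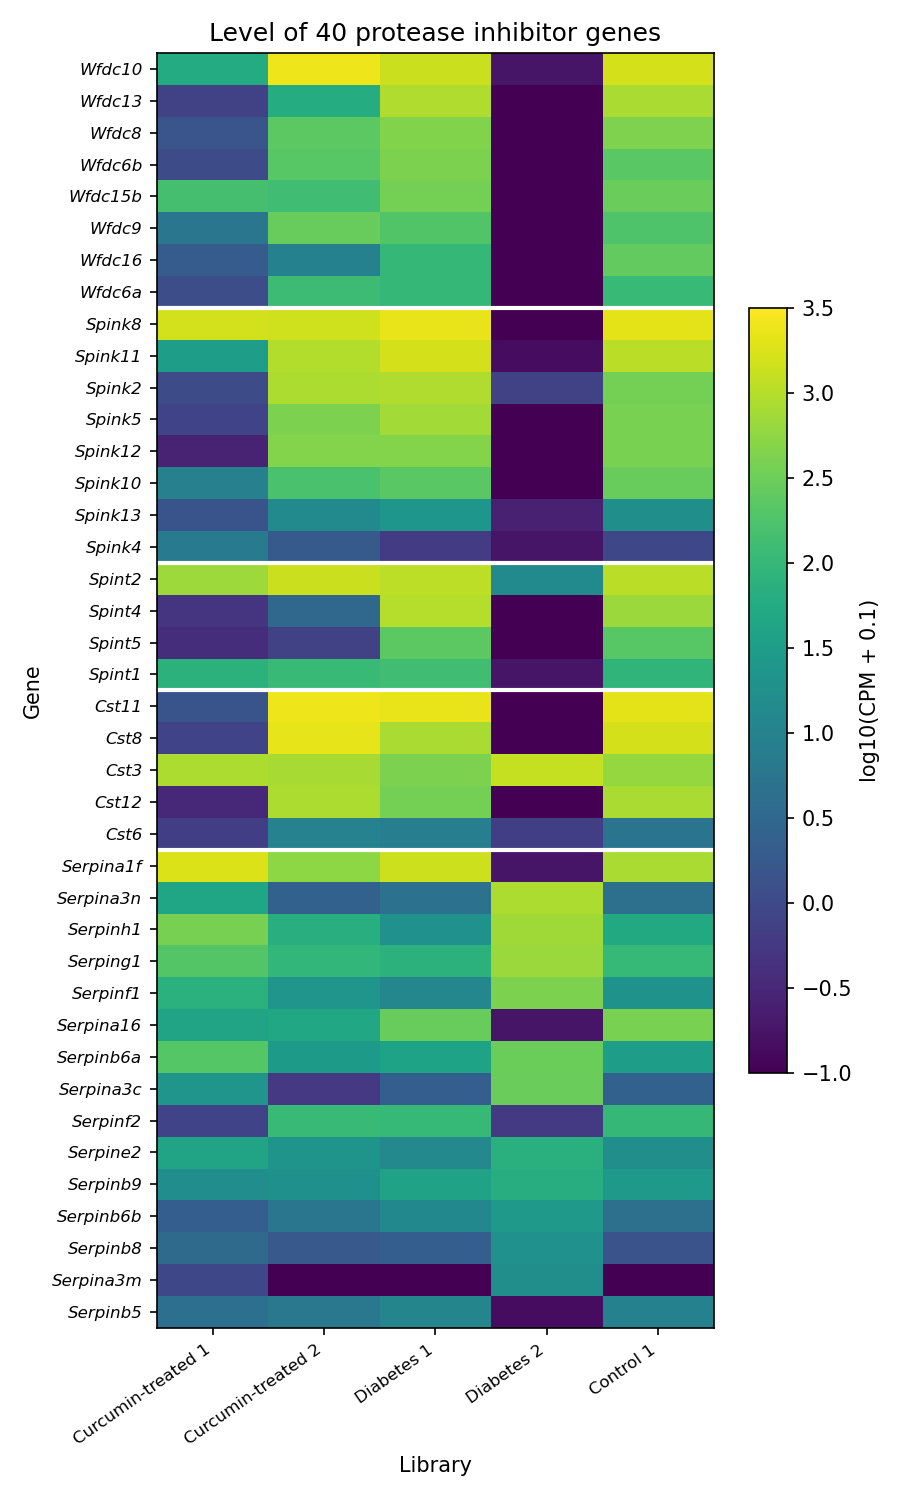
Each cell is the level of 1 gene in 1 library as log10(CPM + 0.1), for 40 of the genes with the highest levels in each family, with white lines between families and libraries ordered curcumin-treated, diabetes, control. The WFDC, SPINK and SPINT genes other than Spint2 are dark in diabetes 2, while Cst3, Serpina3n, Serping1 and Serpinf1 are brightest there.

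Among the WFDC genes, Wfdc10 took the most counts in curcumin-treated 2, diabetes 1 and control. It had 58.5 and 2386 CPM in curcumin-treated tissue, 1367 and 0.0788 CPM in diabetes and 1639.7 CPM in control. Wfdc10 was thus high in the 3 libraries rich in epididymal markers, and the ranges of the treated and untreated diabetic groups overlapped. The next genes of the family, Wfdc13, Wfdc8 and Wfdc6b, belong to the same gene cluster. Wfdc13 had 0.683 and 62.0 CPM with curcumin, 926 and 0 CPM in diabetes and 845 CPM in control. For Wfdc8, the levels were 1.44 and 235 CPM with curcumin, 437 and 0 CPM in diabetes and 421 CPM in control. Wfdc6b stood at 1.01 and 217 CPM with curcumin, 412 and 0 CPM in diabetes and 222 CPM in control. All 3 were at 0 in diabetes 2, where a count of 0 allows up to 0.118 CPM, and at under 2 CPM in curcumin-treated 1. Wfdc6a and Wfdc6b share 39.9% and 31.9% of their 100-base stretches with another gene, and the exons of Wfdc6b overlap those of Wfdc8 on the other strand, so reads of these genes may be split between them.

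Wfdc15b, also called SWAM1, an antibacterial WAP protein known from kidney and epididymis, departed from that pattern. It had 150.0 and 129 CPM with curcumin, 356 and 0 CPM in diabetes and 297 CPM in control, so that its level in curcumin-treated 1 was close to that in curcumin-treated 2. Wfdc9 had 5.79 and 286 CPM with curcumin, 188 and 0 CPM in diabetes and 186 CPM in control. Wfdc16 had 1.98 and 9.50 CPM with curcumin, 99.8 and 0 CPM in diabetes and 259 CPM in control, which put both treated libraries below diabetes 1 and control. Wfdc6a came to 1.04 and 120.0 CPM with curcumin, 101 and 0 CPM in diabetes and 110.2 CPM in control.

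Only 2 WFDC genes that reached 5 CPM were highest in diabetes 2. Wfdc21, named Wdnm1-like and known as a product of adipocytes in mice, had 10.4 and 0.259 CPM with curcumin, 0 and 77.7 CPM in diabetes and 0.148 CPM in control. Wfdc17, known from activated macrophages, had 5.97 and 2.78 CPM with curcumin, 3.65 and 12.5 CPM in diabetes and 2.18 CPM in control. Both were highest in the library with the most adipocyte and macrophage marker counts: the 8 macrophage genes took 0.0432% and 0.0299% with curcumin, 0.0138% and 0.241% in diabetes and 0.0170% in control, and their part in these levels was not tested. These 2 genes were named after their values were seen.

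Of the SPINT genes, Spint2 and Spint1 encode the hepatocyte growth factor activator inhibitors, membrane proteins of epithelia that also block matriptase. Spint2 had 682 and 1405 CPM with curcumin, 1118 and 14.1 CPM in diabetes and 1073 CPM in control. Spint1 had 76.6 and 114 CPM with curcumin, 133 and 0.0788 CPM in diabetes and 88.3 CPM in control. Both were lowest in diabetes 2, and the other 4 libraries lay far above it. The other 3 members, Spint3, Spint4 and Spint5, are small Kunitz genes inside the WFDC cluster on chromosome 2. Spint4 had 0.395 and 3.21 CPM with curcumin, 980.2 and 0 CPM in diabetes and 652 CPM in control. Spint5 had 0.288 and 0.636 CPM with curcumin, 234 and 0 CPM in diabetes and 212 CPM in control. Spint3 had 0.755 and 8.51 CPM with curcumin, 29.9 and 0 CPM in diabetes and 101 CPM in control. Spint4 and Spint5 were low in both treated libraries and in diabetes 2, and high in diabetes 1 and control.

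Counting only protein-coding genes and members, GENCODE M21 places 14 genes side by side on chromosome 2, 13 of them members. Their order is Wfdc2, Spint3, Wfdc6a, Eppin, Wfdc8, Wfdc6b, Wfdc16, Wfdc9, Wfdc10, Wfdc11, Wfdc13, Spint4, Spint5 and Wfdc3. Eppin, which carries both a WAP and a Kunitz domain and coats sperm, is not a member by its symbol and had 0.539 and 342 CPM with curcumin, 239 and 0 CPM in diabetes and 283 CPM in control. Across the cluster, the levels in curcumin-treated 2 were within 2-fold of diabetes 1 and of control except at Spint3, Wfdc16, Wfdc13, Spint4 and Spint5. Wfdc13, Spint4 and Spint5 are next to each other, Wfdc9, Wfdc10 and Wfdc11 part them from Wfdc16, and Spint3 lies farther off.

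**Figure D3:**
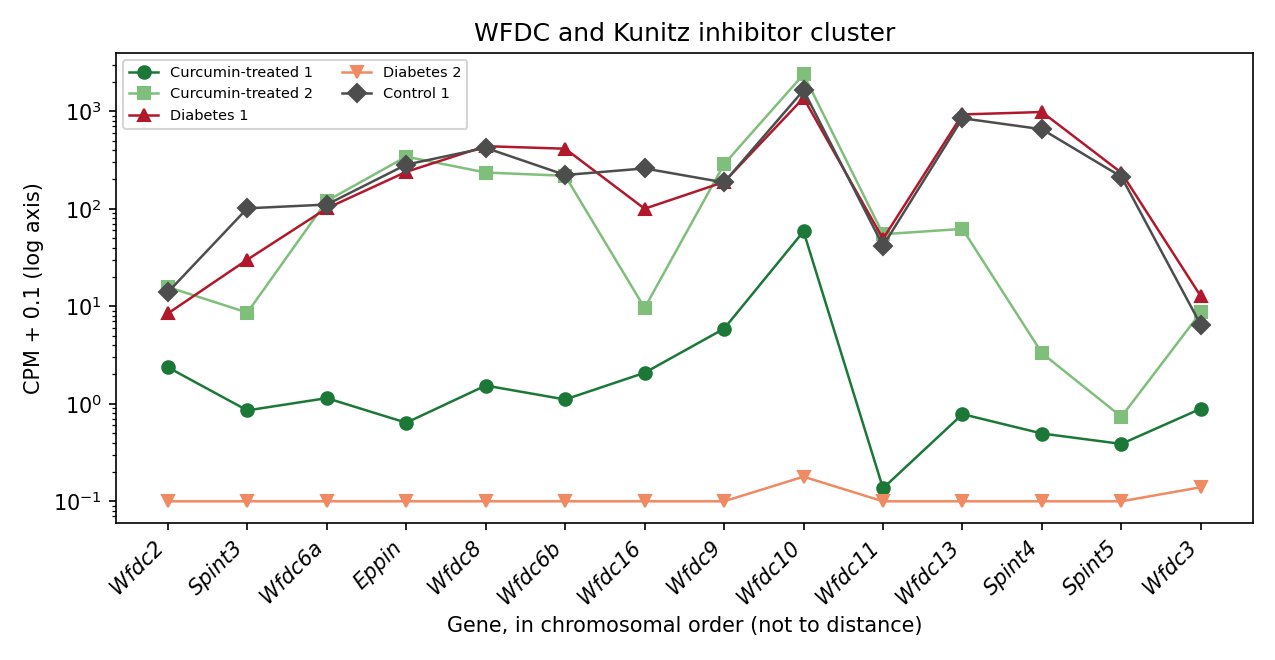
Level of each gene as CPM + 0.1 on a log axis, for the 14 neighbouring protein-coding genes in chromosomal order (spacing is not to distance), with 1 line per library. Curcumin-treated 2 follows diabetes 1 and control at Wfdc9, Wfdc10 and Wfdc11 and lies far below them at Spint4 (3.21 CPM) and Spint5 (0.636 CPM), while diabetes 2 is at or near 0 throughout.

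In curcumin-treated 2, Wfdc10 stood at 2386 CPM and the 3 SPINT genes of the cluster at under 9 CPM. Eppin, which also carries a Kunitz domain, had 342 CPM there. The sequences before the starts of Wfdc10, Spint3, Spint4 and Spint5 are given as examples from the cluster. They are from RefSeq on build GRCm38.p6, cover bases 250 to 11 before the table's start, and run 5′ to 3′ along the gene. Capitals mark matches, on either strand, to 3 motifs. AGAACA is a half-site of the androgen receptor. The core promoter element known as the TATA box is searched as TATAAA. A binding site of the PEA3 group of ETS factors is searched as AGGAAG. The matches do not overlap each other in the sequences printed. Wfdc10 lies at chr2:164655796-164656035 on the plus strand, Spint3 at chr2:164573467-164573706 on the minus strand, Spint4 at chr2:164698251-164698490 and Spint5 at chr2:164715055-164715294, both on the plus strand.
Wfdc10: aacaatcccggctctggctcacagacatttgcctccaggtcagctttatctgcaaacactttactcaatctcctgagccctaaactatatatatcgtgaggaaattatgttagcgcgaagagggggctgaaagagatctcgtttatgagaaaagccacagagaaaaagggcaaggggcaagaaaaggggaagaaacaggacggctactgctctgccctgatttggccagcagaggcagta
Spint3: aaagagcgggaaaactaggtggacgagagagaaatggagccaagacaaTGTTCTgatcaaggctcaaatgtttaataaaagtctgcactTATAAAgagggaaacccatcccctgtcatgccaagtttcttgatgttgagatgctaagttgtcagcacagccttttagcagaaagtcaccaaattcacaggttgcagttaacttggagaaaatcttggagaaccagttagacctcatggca
Spint4: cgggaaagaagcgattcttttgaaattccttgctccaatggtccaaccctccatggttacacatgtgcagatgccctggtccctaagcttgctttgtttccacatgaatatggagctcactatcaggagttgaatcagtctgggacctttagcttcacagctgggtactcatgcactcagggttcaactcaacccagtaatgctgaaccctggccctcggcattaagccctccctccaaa
Spint5: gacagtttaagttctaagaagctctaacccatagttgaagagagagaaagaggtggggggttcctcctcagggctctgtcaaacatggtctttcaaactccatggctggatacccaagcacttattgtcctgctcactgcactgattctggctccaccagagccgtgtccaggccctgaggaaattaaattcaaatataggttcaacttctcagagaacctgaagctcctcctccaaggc

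Spint3 held AGAACA on the minus strand of the gene at 202 bases and TATAAA at 161 bases before its start, and the other 3 sequences held none of the 3 motifs in this window. Wfdc13 and Wfdc16 also parted in curcumin-treated 2 and are not printed. The sequence of Wfdc16 over the same bases held none of the 3 motifs. Over 32851 mouse promoters of this length, AGAACA was in 15.5%, TATAAA in 12.1% and AGGAAG in 28.4%. RefSeq held 94 promoters of 80 members, and of these 24 held AGAACA, 20 held TATAAA and 38 held AGGAAG.

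Kazal-type inhibitors of the SPINK family were led by Spink8, an epididymal gene in mice. Spink8 had 1587 and 1485 CPM with curcumin, 2249 and 0 CPM in diabetes and 2098 CPM in control. It was high in curcumin-treated 1, where most of its family was not. Spink11 had 33.0 and 959 CPM with curcumin, 1599.6 and 0.0394 CPM in diabetes and 1098 CPM in control. Spink2, whose product guards the acrosome of developing sperm, had 0.971 and 870.0 CPM with curcumin, 923 and 0.670 CPM in diabetes and 366 CPM in control. Spink5 encodes LEKTI, an inhibitor of skin kallikreins, and had 0.719 and 401 CPM with curcumin, 759 and 0 CPM in diabetes and 395 CPM in control. Each of these 3 was low in curcumin-treated 1 and near 0 in diabetes 2.

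Spink12 had 0.180 and 469.9 CPM with curcumin, 459 and 0 CPM in diabetes and 395 CPM in control. Spink10 had 9.06 and 159.7 CPM with curcumin, 225 and 0 CPM in diabetes and 286 CPM in control. Spink13, studied in sperm maturation in rats, had 1.40 and 13.9 CPM with curcumin, 22.7 and 0.158 CPM in diabetes and 17.5 CPM in control. These followed Spink2 and Spink5 in being high in the 3 libraries with many epididymal counts. Spink4, known from intestinal goblet cells, was the exception, with 6.90 and 1.74 CPM with curcumin, 0.511 and 0.0788 CPM in diabetes and 0.851 CPM in control. Its treated libraries were both above its diabetes libraries and above control, on counts of 192 and 74 with curcumin, 13 and 2 in diabetes and 23 in control.

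The cystatins split by subgroup. Cst8 and Cst11 belong to the CRES group, reproductive cystatins of the epididymis, and Cst12 lies beside them on chromosome 2. Cst11 had 1.40 and 2472 CPM with curcumin, 2273 and 0 CPM in diabetes and 2085 CPM in control. Cst8 had 0.719 and 2140.5 CPM with curcumin, 857 and 0 CPM in diabetes and 1654 CPM in control. Cst12 had 0.216 and 889 CPM with curcumin, 361 and 0 CPM in diabetes and 849 CPM in control. All 3 were at 0 in diabetes 2 and under 2 CPM in curcumin-treated 1, a library in which Spink8 had 1587 CPM.

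Counted as for the WFDC cluster, the cystatin cluster holds 8 genes. Cst3, which encodes cystatin C, the widely expressed inhibitor of cathepsins, lies there too but was far above 5 CPM in all 5 libraries. It had 884 and 819 CPM with curcumin, 417 and 1262 CPM in diabetes and 612 CPM in control. Cst3 was lowest in diabetes 1 and highest in diabetes 2, and the treated libraries lay between them. Cst6, cystatin E/M, known from epithelia, was low everywhere, at 0.575 and 9.71 CPM with curcumin, 8.41 and 0.591 CPM in diabetes and 5.29 CPM in control.

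Per kilobase of the longest GENCODE transcript, which allows genes to be set side by side, the order of the leading inhibitors differed by library. In curcumin-treated 1 the level of Spink8 was 2067 CPM per kb and that of Cst3 1028, with Serpina1f at 656. In curcumin-treated 2 the level of Wfdc10 was 5197 CPM per kb, that of Cst11 4020 and that of Cst8 2662. In diabetes 1 the level of Cst11 was 3696 CPM per kb, that of Wfdc10 2977 and that of Spink8 2929. Diabetes 2 was led by Cst3 at 1467 CPM per kb, with Serpina3n at 425 and Serping1 at 383. In control, Wfdc10 stood at 3572 CPM per kb, Cst11 at 3391 and Spink8 at 2732, the same 3 genes as in diabetes 1.

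The serpins held both patterns. Serpina1f and Serpina16 of clade A, known from the epididymis in mice and rats, were near 0 in diabetes 2. Serpina1f had 1857 and 554 CPM with curcumin, 1446 and 0.0788 CPM in diabetes and 857 CPM in control, and took the most serpin counts in every library but diabetes 2. Serpina16 had 42.7 and 49.4 CPM with curcumin, 288 and 0.0788 CPM in diabetes and 397 CPM in control, so both treated libraries lay well below diabetes 1 and control. Serpinf2, which encodes the plasmin inhibitor alpha-2-antiplasmin, had 0.719 and 109.7 CPM with curcumin, 102 and 0.473 CPM in diabetes and 101 CPM in control. Its high libraries were the 3 with many epididymal counts. Serpinb5, maspin, an epithelial serpin, had 4.35 and 6.20 CPM with curcumin, 10.8 and 0.0394 CPM in diabetes and 9.40 CPM in control.

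Serping1, Serpinf1 and Serpinh1 were highest in diabetes 2 and next highest in curcumin-treated 1. Serping1, the C1 inhibitor of the complement and contact systems, had 200.2 and 95.7 CPM with curcumin, 77.4 and 678 CPM in diabetes and 105 CPM in control. Serpinf1, which encodes pigment epithelium-derived factor, a secreted serpin without inhibitory activity, had 75.4 and 22.5 CPM with curcumin, 11.9 and 405 CPM in diabetes and 20.5 CPM in control. Serpinh1, the collagen chaperone HSP47, is kept in the endoplasmic reticulum and blocks no protease, and it had 370.2 and 68.5 CPM with curcumin, 19.2 and 731 CPM in diabetes and 54.6 CPM in control. In all 3 the library rich in adipocyte markers was highest, far above the other diabetes library.

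Serpine2, protease nexin-1, a thrombin inhibitor, had 41.6 and 21.2 CPM with curcumin, 12.9 and 71.7 CPM in diabetes and 16.8 CPM in control. Both treated libraries of Serpine2 lay between the diabetes libraries.

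Serpina3n, an acute phase serpin that inhibits granzyme B in mice, had 46.7 and 2.40 CPM with curcumin, 4.64 and 877 CPM in diabetes and 4.48 CPM in control. Serpina3c, of the same subfamily and gene cluster, had 21.7 and 0.448 CPM with curcumin, 2.12 and 294 CPM in diabetes and 2.37 CPM in control. Serpina3m had 0.827 and 0 CPM with curcumin, 0 and 16.8 CPM in diabetes and 0 CPM in control, and it shares 6.09% of its 100-base stretches with Serpina3k, whose exons it overlaps. Nearly all counts of the 3 genes thus came from diabetes 2, with curcumin-treated 1 next.

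Serpina3c and Serpina3n moved in the same libraries, and the sequences before their starts are given for that reason, with capitals for the same 3 motifs. They are from RefSeq on GRCm38.p6 and stop before the outermost RefSeq start of each gene. Serpina3c lies at chr12:104153930-104154122 on the minus strand and Serpina3n at chr12:104406458-104406645 on the plus strand.
Serpina3c: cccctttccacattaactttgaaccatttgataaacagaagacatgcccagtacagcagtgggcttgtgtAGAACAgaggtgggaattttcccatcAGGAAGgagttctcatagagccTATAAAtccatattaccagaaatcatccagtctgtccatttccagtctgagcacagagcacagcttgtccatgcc
Serpina3n: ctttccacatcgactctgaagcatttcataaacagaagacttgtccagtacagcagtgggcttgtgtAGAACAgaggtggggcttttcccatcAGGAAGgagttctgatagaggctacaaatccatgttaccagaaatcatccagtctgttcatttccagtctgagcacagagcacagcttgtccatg

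With Serpina3n shifted by 3 bases, 174 of the 188 bases compared were identical (92.6%). Distances are counted to the table's start, as for the cluster above, which in both genes lies downstream of the outermost start. Both held the androgen receptor half-site, at 180 bases before the table's start in Serpina3c and at 183 in Serpina3n, and the ETS site, at 154 and 157 bases. The letters TATAAA were found in Serpina3c at 132 bases. The sequences stop 58 bases before the table's start in Serpina3c and 63 in Serpina3n, and bases nearer to that start were not searched. Both genes lie in the clade A cluster on chromosome 12. Counting only protein-coding genes and members, its 28 neighbouring genes are all members.

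Serpins of clade B mostly stay inside cells. Serpinb6a, an inhibitor of cathepsin G, had 204 and 28.5 CPM with curcumin, 41 and 313 CPM in diabetes and 32.6 CPM in control, with exons that overlap Nqo2, Ripk1 and a further gene on the other strand. Serpinb9, which protects cytotoxic and other cells from granzyme B, had 16 and 18.2 CPM with curcumin, 39.8 and 63.3 CPM in diabetes and 27.5 CPM in control. Serpinb6b had 2.12 and 5.68 CPM with curcumin, 12.3 and 27.5 CPM in diabetes and 4.48 CPM in control. For both Serpinb9 and Serpinb6b, every treated library was below every diabetes library. Serpinb8, an inhibitor of furin, had 3.45 and 1.72 CPM with curcumin, 2.12 and 19.0 CPM in diabetes and 1.30 CPM in control.

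Serpins known from liver were scarce. Of 14 such genes, the summed share was 0.000496% and 0.0111% with curcumin, 0.0102% and 0.00410% in diabetes and 0.0102% in control, and Serpinf2 carried nearly all of it in curcumin-treated 2, diabetes 1 and control. In diabetes 2 the leading gene of the list was Serpina3m, and Serpina1a, an alpha-1-antitrypsin gene that shares 49.9% of its 100-base stretches with near-identical copies, had 0.431 and 0 CPM with curcumin, 0 and 6.97 CPM in diabetes and 0 CPM in control. Hepatocyte markers (8 genes) were near 0 in all libraries, at no more than 0.00257% in diabetes 2, where Alb led with 12.1 CPM.

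Serine and cysteine proteases, the classes that these families are known to block, also split by library. Cysteine proteases (8 genes) took 0.164% and 0.105% of the counts with curcumin, 0.124% and 0.792% in diabetes and 0.114% in control. Their leading gene Ctsb, cathepsin B, a target of cystatin C, had 844 and 489 CPM with curcumin, 499 and 4915 CPM in diabetes and 413 CPM in control. Ctsb and Cst3 were both highest in diabetes 2. The plasminogen and coagulation list had 11 genes, among them the complement proteases C1ra and C1s1. It took 0.0466% and 0.00747% with curcumin, 0.00730% and 0.0442% in diabetes and 0.0112% in control. C1s1 led it in diabetes 2 and control, with 181 and 33.6 CPM, and C1ra in curcumin-treated 2, with 24.7 CPM. Plau, which encodes urokinase, led that list in curcumin-treated 1 and diabetes 1. It had 383 and 5.26 CPM with curcumin, 22.8 and 108 CPM in diabetes and 30.2 CPM in control. St14, matriptase, the target of Spint1 and Spint2, led the 7 epithelial serine proteases in curcumin-treated 1, diabetes 1 and control and had 77.1 and 65.8 CPM with curcumin, 152 and 7.88 CPM in diabetes and 135 CPM in control, lowest in diabetes 2. The sum of that list took 0.0281% and 0.0275% with curcumin, 0.0351% and 0.0372% in diabetes and 0.0409% in control, and Htra1, a secreted serine protease, led it in diabetes 2, with 63.8 and 27.1 CPM with curcumin, 30.1 and 362 CPM in diabetes and 34.0 CPM in control. Of the 9 granule proteases, Tpsb2, a mast cell tryptase, had 51.0 and 0.236 CPM with curcumin, 0 and 22.1 CPM in diabetes and 0.111 CPM in control. Other secreted inhibitors (28 genes, 23 tested) were led by Eppin in curcumin-treated 2, diabetes 1 and control. In diabetes 2 and curcumin-treated 1 Itih5, an inter-alpha-trypsin inhibitor chain of fat tissue, led, with 146 and 15.7 CPM with curcumin, 6.84 and 735 CPM in diabetes and 24.5 CPM in control.

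The comparison of curcumin-treated with untreated diabetes asks what the treatment changed. By edgeR's quasi-likelihood test with Benjamini-Hochberg adjustment at 0.05, 0 of the 76 tested members passed, as did 0 of all 29855 tested genes (0%). Unadjusted p was under 0.05 for 3 members, Serpinb9, Serpinb6b and Spink4, and for 696 genes (2.33% of all tested). DESeq2 called 0 members and 95 genes (0.318%), 92 of them higher with curcumin (0.308%). The libraries of the groups did not overlap for 6 of 76 members (7.89%), against 27.6% of all tested genes. Higher in both treated libraries were 2 members, Spink4 and Wfdc1, against 17.9% of all genes, and lower in both were 4, Serpinb6b, Serpinb9, Serpinb12 and Serpinb1b, against 9.72% of all genes. The last pair were under 2 CPM in every library and are named after their values were seen.

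Serpinb9 had a fitted log2 fold change of -1.62 (SE 0.53, edgeR adjusted p = 0.852), lower in both treated libraries than in either diabetes library. Serpinb6b had -2.35 (SE 0.90, edgeR adjusted p = 0.852), and its value was between -3.40 and -1.51 over the alternatives. For Spink4 the fold change was 3.84 (SE 1.45, edgeR adjusted p = 0.852), higher in both treated libraries. Wfdc1, a stromal inhibitor of growth known from the prostate as ps20, had 21.9 and 12.0 CPM with curcumin, 11.7 and 0.788 CPM in diabetes and 18.6 CPM in control. Its fitted fold change was 1.49 (SE 1.2, edgeR adjusted p = 0.854), and it ran from 0.59 without diabetes 2 to 4.29 without diabetes 1. None of these 4 passed the threshold. Wfdc1 and the summed share of the 8 smooth muscle markers were both highest in curcumin-treated 1 and lowest in diabetes 2. In this comparison all 8 markers had a positive fold change, with a median of 5.65, and their part in the Wfdc1 value was not tested.

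Over the 76 members the fitted fold change was negative for 50, or 65.8%, against 48.1% of all tested genes, with a median of -0.70 against 0.05. The serpins held most of that count, with 31 of 38 negative and a median of -1.60. Without diabetes 2 the serpin median was 1.36, with 8 of 27 tested serpins negative, so its sign rested on that library. The rest of the 38 serpins had enough counts to be tested only through diabetes 2. That favours a negative value for them, so the serpin count and median are a description only. The 12 adipocyte markers, of which 11 had a negative fold change with a median of -2.66, also had their highest summed level in diabetes 2, and their part in the serpin values was not tested. Median fold changes were -0.25 for the 16 tested WFDC genes, -0.23 for the 9 SPINK genes, -1.51 for the 5 SPINT genes and 0.52 for the 8 cystatins. With each replicated library left out in turn they ran from -3.29 to 12.00 for WFDC, -3.66 to 13.95 for SPINK, -4.33 to 8.88 for SPINT and -6.94 to 6.15 for the cystatins, lowest without curcumin-treated 2 and highest without diabetes 1, so no sign held throughout. The highest values are set against diabetes 2 alone, where many members are at 0, and depend on the prior count of the fit.

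**Figure D4:**
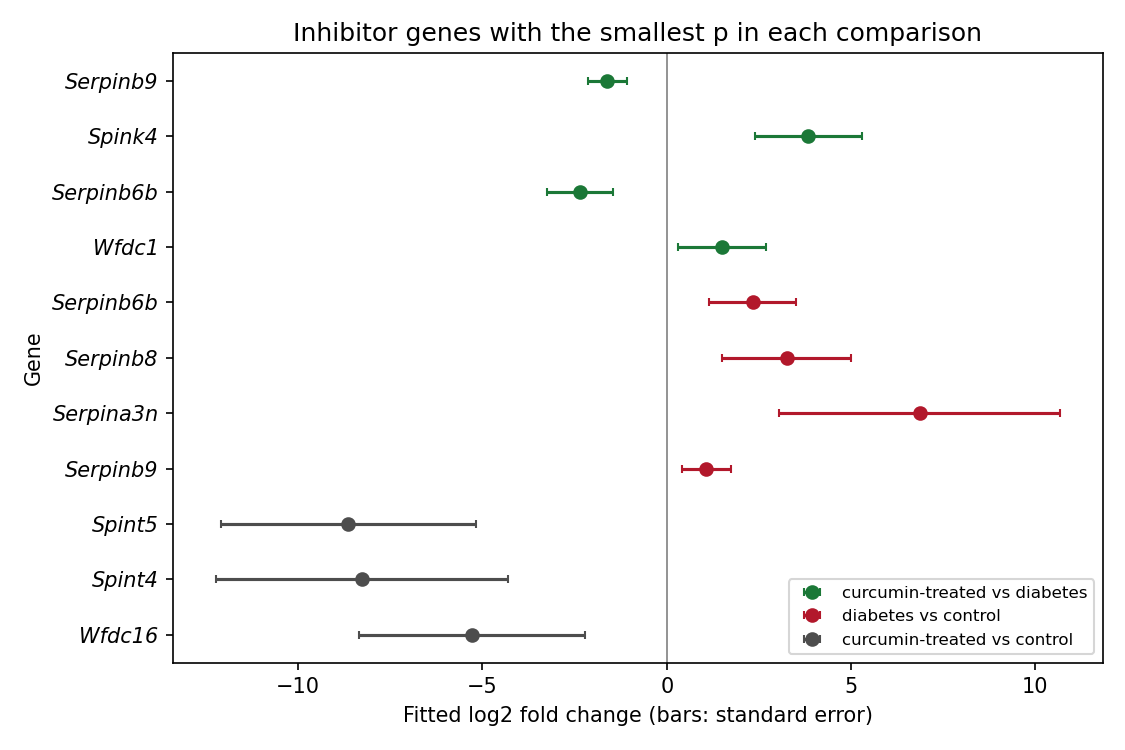
Fitted log2 fold changes (11 values) of genes with small p among those at 5 CPM or more whose groups did not overlap, with bars for 1 standard error, coloured by comparison. Serpinb9 and Serpinb6b lie below 0 with curcumin against diabetes and above 0 in diabetes against control, Spint4 and Spint5 lie below -8 with curcumin against control, and none passed the threshold.

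The comparison of diabetes with control asks what the model changed, with 1 control library, whose spread is taken to be that of the other groups. By edgeR's quasi-likelihood test, 0 of 76 members passed, against 0% of all tested genes. Unadjusted p was under 0.05 for 1 member, Serpina3f, and for 440 genes (1.47%), and DESeq2 called 1 member, Serpina3m, and 56 genes (0.188%), 49 of them higher in diabetes (0.164%). Serpina3m had 0 and 426 counts in diabetes and 0 in control, so its DESeq2 adjusted p of 0.000146 rested on diabetes 2, and its edgeR adjusted p was 1. Serpina3f had 20 and 79 counts in diabetes and 0 in control. The groups did not overlap for 26 members (34.2%), against 51.8% of all genes. Of these, 12 were higher in diabetes (15.8%, against 17.3% of all genes) and 14 were lower (18.4%, against 34.5%). With 1 control library a gene need only have its control value outside the diabetes pair to count here.

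Serpina3n had a log2 fold change of 6.87 (SE 3.81, edgeR adjusted p = 1), from diabetes libraries at 4.64 and 877 CPM against 4.48 CPM in control, and without diabetes 2 it was 0.09. Serpinb8 had 3.25 (SE 1.75, edgeR adjusted p = 1), and 0.75 without that library. Serpinb6b had 2.34 (SE 1.18, edgeR adjusted p = 1) and Serpinb9 1.08 (SE 0.66, edgeR adjusted p = 1), and without diabetes 2 their values were 1.5 and 0.57. All 4 were above control in both diabetes libraries.

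A negative fold change in diabetes was fitted for 36 members (47.4%), against 45.2% of all genes, and the families differed. Median fold changes were 3.14 for the 38 serpins, -0.86 for the WFDC genes, -0.57 for the SPINK genes, -0.82 for the SPINT genes and -0.65 for the cystatins, against 0.07 over all tested genes. Without diabetes 2 the medians were 0 for the serpins, 0.06 for WFDC, 0.42 for SPINK, 0.18 for SPINT and 0.06 for the cystatins, so none of the negative signs remained. Only 27 serpins had enough counts to be tested without diabetes 2. The rest of the 38 were tested only through that library, which favours a positive value for them here. Since diabetes 2 held 14 counts of epididymal markers and the most adipocyte counts, these medians moved with tissue markers, whose part in them was not tested.

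The comparison of curcumin-treated with control shares its libraries with the other comparisons. By edgeR's quasi-likelihood test, 0 of 76 members passed, against 0% of all genes. Unadjusted p was under 0.05 for 1 member, Serpina3f, and for 112 genes (0.375%). DESeq2 called 77 genes (0.258%), all of them higher, with 1 member, Serpina3m, at 23 and 0 counts with curcumin and 0 in control (adjusted p = 0.0209). Groups did not overlap for 37 members (48.7%), against 58.6% of all genes, with 16 higher (21.1%, against 24.6%) and 21 lower (27.6%, against 34%). A negative fold change was fitted for 37 members (48.7%), against 41.9% of all genes.

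Spint5, Spint4 and Wfdc16 had the smallest p among members at 5 CPM or more with separate groups. Spint5 had a log2 fold change of -8.64 (SE 3.46, edgeR adjusted p = 1), with 0.288 and 0.636 CPM with curcumin against 212 CPM in control. Spint4 had -8.27 (SE 3.97, edgeR adjusted p = 1) and Wfdc16 -5.28 (SE 3.06, edgeR adjusted p = 1). Over the alternatives the values ran from -9.49 to -4.00 for Spint5, from -10.66 to -3.42 for Spint4 and from -7.01 to -1.67 for Wfdc16, all below 0. In diabetes 2 these 3 genes were at 0, so low levels were not confined to treated libraries.

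In curcumin-treated 2, diabetes 1 and control 1 all 18 epididymal markers were above 5 CPM. The 31 members at 5 CPM or more in diabetes 1 and in control and under 5 CPM in diabetes 2 were set side by side in these 3 libraries, with 1 library per group and hence no test. That choice sets a floor in diabetes 1 and control but none in curcumin-treated 2, which favours low ratios for curcumin-treated 2, so the counts are a description. The same ratios were not computed over all genes, so whether any of these counts is unusual cannot be told. A rule tried after these values were seen, 5 CPM or more in at least 1 of the 3 libraries and under 5 CPM in diabetes 2, gave 31 members, and 31 of them were shared. The ratio of curcumin-treated 2 to diabetes 1 had a median of 0.685, and 21 of the 31 were within 2-fold. The lowest was Spint5 at 0.00272 and the highest Cst8 at 2.50. Below 0.2 were 5 genes, Serpina16, Spint4, Spint5, Wfdc13 and Wfdc16. Against control the median ratio of curcumin-treated 2 was 0.981, with 23 within 2-fold and the same 5 genes plus Spint3 below 0.2. Diabetes 1 over control had a median of 1.10, with 27 within 2-fold, 0 below 0.2, and a range from 0.297 for Spint3 to 2.52 for Spink2. The epididymal markers of curcumin-treated 2 also differed from gene to gene: their sum was 1.51 times that of diabetes 1 and 1.46 times that of control, led by Gpx5, while their median was 1325 CPM, against 1537 CPM in diabetes 1 and 2078 CPM in control. The marker Crisp1 stood at 334 CPM in curcumin-treated 2, whereas diabetes 1 had 1700.1 CPM and control 2609.6 CPM, and the part of these differences in the members' ratios was not tested.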

How the data were processed

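RNA-seq counts were analysed in 5 libraries. Poly-A RNA was sequenced as paired ends with a stranded kit, per the labels' protocols. The authors deposited 1 table of raw whole-number counts per Ensembl gene. FastQC, featureCounts and build GRCm39 are named in the submitters' processing notes, and the aligner, annotation release and strand setting were not given in the sources used here, so overlapping antisense genes and near-identical copies are uncertain.

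Symbols came from a table of gene IDs. CPM is scaled to library totals, and shares carry 95% Wilson intervals. Genes passing filterByExpr (29855) were scaled by TMM and fitted together, all 5 libraries in 1 model, by the quasi-likelihood test of edgeR 4.0.16 (robust, newer dispersion method) in R 4.3.3, two-sided, with Benjamini-Hochberg adjustment over all tested genes, 2 residual degrees of freedom and a biological coefficient of variation of 1.07. Transcript length, gene order, shared 100-base stretches and exon overlaps came from GENCODE M21 on GRCm38, and promoters from RefSeq on GRCm38.p6. No coordinates of the deposited build are printed.

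Levels are given for the members with the highest CPM, up to 8 WFDC, SPINK and cystatin genes, 4 SPINT genes and 16 serpins, at 5 CPM or more; Spint3, Serpina1a, Wfdc1, Wfdc17 and Wfdc21 were added for their patterns or tests. Tests are given for members past the threshold, else the 5 with the smallest p at 5 CPM or more whose groups did not overlap (3 for curcumin against control). For 1 serpin met by these rules, values are not reported here, and the counts, medians and sums over members include it. The members and lists were chosen with earlier results of these data known. Alternatives were other scalings and filters, DESeq2 1.42.0, a replicate block, a fit of 4 libraries, each replicated library left out, and, chosen after seeing the data, a crossed pairing and the older quasi-likelihood method.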

Additional observations from a re-analysis of the deposited data

How the results depend on the processing

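No member passed 0.05 by edgeR under any alternative run, and DESeq2 was the only setting that called genes: 95 for curcumin-treated against diabetes (0 members), 56 for diabetes against control (1 member) and 77 for curcumin-treated against control (1 member). With each replicated library left out in turn, the count stayed at 0 for all genes and for members in each comparison (range 0 to 0). The replicate block also called 0 genes and 0 members. Same-numbered libraries deviated in opposite ways (correlation -0.41), the labels give no shared source for a number, and the crossed pairing called 0 genes as well. None of the 11 named fold changes changed sign in 122 refits, and their edgeR or DESeq2 adjusted p ranged from 0.498 to 1. Scaling by library totals alone moved the median of all genes in curcumin-treated against control by -0.14. TMM factors (0.911 to 1.08) moved 23 of 25 family shares beyond their counting interval.

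The control has no replicate, and the libraries of each other group differ in tissue markers. Diabetes 2 decided the sign of the serpin median in curcumin-treated against diabetes (-1.60 over 38 tested serpins with it, 1.36 over 27 without). Counts of 0 leave room for up to 0.0707 to 0.118 CPM by library, for counting error only.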
